A study of Mus musculus with 12 samples.

Results

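The BCL2 family holds the proteins that decide whether the outer mitochondrial membrane stays intact during cell stress. It was followed here as 10 of the 22141 genes measured in cultured mouse islets: the antiapoptotic genes Bcl2, Bcl2l1 and Mcl1, the pore-forming genes Bax and Bak1, and the BH3-only genes Bcl2l11, Bbc3, Pmaip1, Bid and Bad. They were chosen by name from the family, with earlier results of these data known. Antiapoptotic members hold BAX, BAK and the BH3-only proteins in check. BH3-only proteins are raised or activated by different kinds of stress, and once they free or activate BAX and BAK, the membrane is permeabilised and cytochrome c leaves the mitochondria. In beta cells this route is studied for cell loss under saturated fatty acids and cytokines.

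Islets are the endocrine clusters of the pancreas that hold the insulin-producing beta cells, and these came from male wild-type mice of 10 to 12 weeks, kept in culture in lots of about 120. Messenger RNA was sequenced from 12 libraries, 3 for each of 4 groups: palmitate with C3a, palmitate alone, vehicle with C3a, and vehicle alone. Palmitate is a saturated fatty acid, and C3a is the peptide cleaved from complement component C3; the series title gives cell death in islets under C3a as the topic. No genetic change is named for any group, and doses and treatment times are not in the labels. The library names of replicates 2 and 3 each carry a date that the 4 groups share; what the date marks, and whether replicates came from separate cultures or mice, is not in the labels. The p-values therefore describe library-to-library spread, which may be technical.

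Sequencing batch 1 holds replicate 1 of the 4 groups (4 libraries with 22216420 to 26110989 counts), and batch 2 holds replicates 2 and 3 (8 libraries with 35876350 to 50264695 counts). Of the counts matched to genes, Ins2 took 8.34% to 11.8%, Ins1 3.21% to 5.40% and Gcg 2.38% to 3.80%. All of the 10 beta cell and 8 alpha cell marker genes were detected. In edgeR's quasi-likelihood fit over 15794 tested genes, palmitate alone differed from vehicle for 4005 genes at an adjusted p under 0.05, and palmitate with C3a from vehicle with C3a for 4246. Because whole islets were sequenced, fewer cells of a type and less RNA per cell cannot be told apart.

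Set against vehicle, islets in palmitate carried more Bcl2l1 and Bax transcript and less Bcl2l11, while Mcl1, the most counted of the antiapoptotic members, was not called. Of the 10 members, all of which passed the filter on low counts, 3 were called for palmitate against vehicle (30.0%, beside 25.4% of all genes tested). Bcl2l1 and Bax rose (13.4% of all genes were called higher) and Bcl2l11 fell (12.0% were called lower). With the replicate number as a block Bid passed as well, which gave 4 members, beside 4612 of all genes. For palmitate with C3a against vehicle with C3a, 4 members were called (40.0%, beside 26.9% of all genes), of which Bcl2l1, Bax and Bid rose (13.8% of all genes) and Bcl2l11 fell (13.1%). The median log2 fold change of the 10 members was -0.03 for palmitate alone and 0.01 with C3a, beside -0.02 and 0.01 over all genes tested. The members' shares called lay close to those of all genes, so the 10 members as a set did not stand out, and the values of single members follow.

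**Figure D1:**
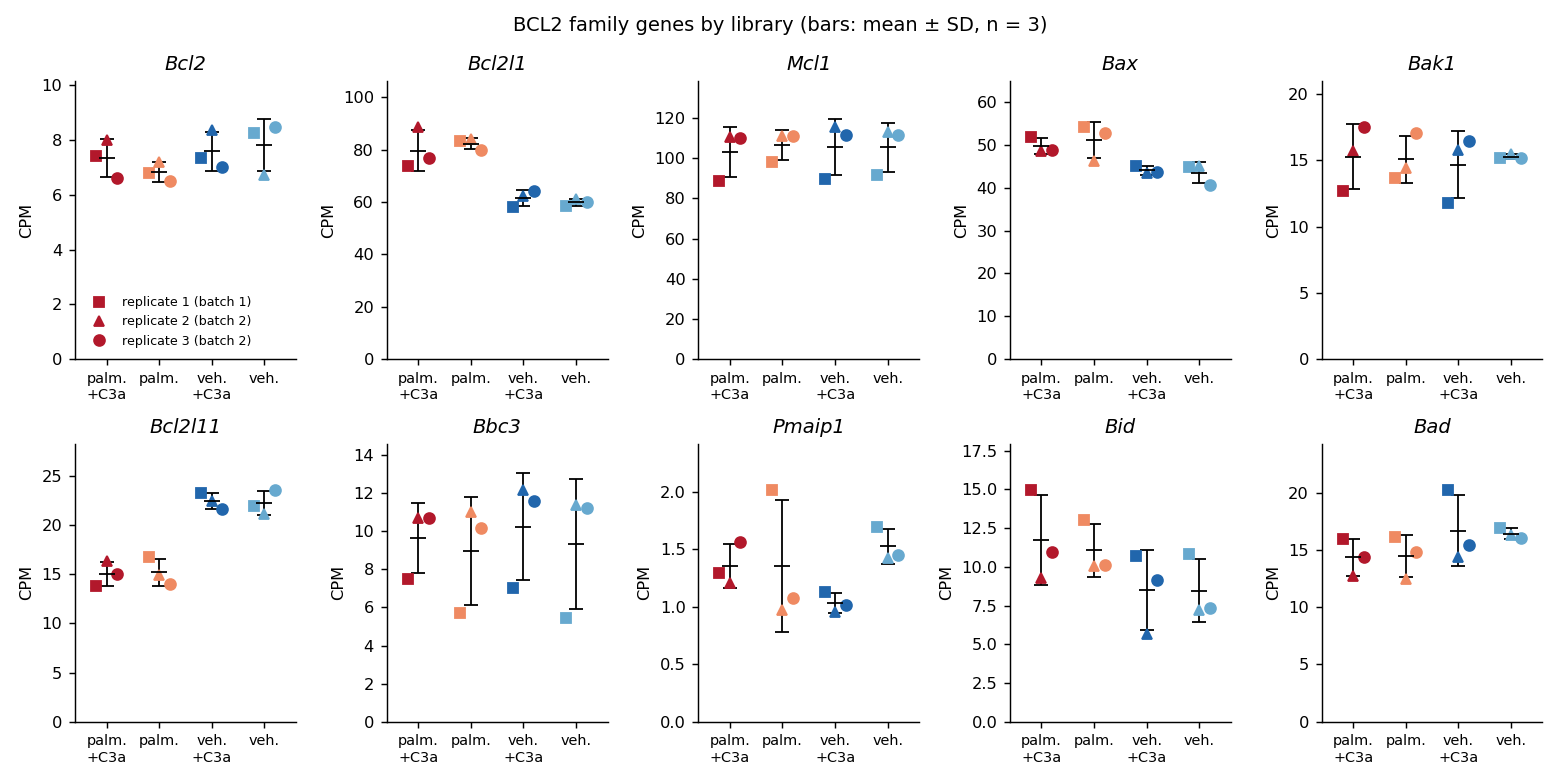
CPM (counts scaled to a common library size) of the 10 BCL2 family genes in each of the 12 libraries; columns run palmitate with C3a, palmitate, vehicle with C3a and vehicle, and bars give mean and SD (n = 3). All 6 palmitate libraries lie above all 6 vehicle libraries for Bcl2l1 and Bax and below them for Bcl2l11, and Bbc3 is lowest in the batch 1 libraries.

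Levels of different genes can be set side by side only per length, so counts were divided by annotated transcript length and scaled to a common total per library (TPM). On this scale Bax, which forms the pore in the outer membrane, was the highest member, with a median of 78.3 TPM over the 12 libraries (range 71.4 to 94.8 TPM). Mcl1, a short-lived antiapoptotic protein, had a median of 50.7 TPM (36.5 to 55.7 TPM) and Bcl2l1, which encodes BCL-XL, 45.4 TPM (35.3 to 56.9 TPM). These ranges overlap with each other and not with that of Bax. Bad followed at 21.5 TPM (17.1 to 27.3 TPM), clear of its neighbours on both sides. Next came Bak1 at 10.8 TPM (7.66 to 12.2 TPM), Bbc3 at 10.2 TPM (4.69 to 12.2 TPM), Bcl2l11 at 6.91 TPM (4.95 to 9.51 TPM) and Bid at 6.42 TPM (3.79 to 10.3 TPM). The ranges of these 4 overlap, so their order is not firm. Bcl2 lay well below the other antiapoptotic members at 1.51 TPM (1.28 to 1.80 TPM), and Pmaip1 was lowest at 0.694 TPM (0.516 to 1.12 TPM). All 10 members kept their rank when 200 bases were taken off each length as an effective length.

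Among family genes outside the 10 members, Bnip3, which acts in hypoxia and mitophagy, was highest, with a median of 166 TPM and a wide range of 72.3 to 374 TPM. Becn1, the autophagy gene with a BH3 motif, was steady at 97.0 to 107 TPM, and Bcl2l2, which encodes the antiapoptotic BCL-W, had a median of 47.5 TPM, close to Bcl2l1. Bcl2l10 and Bcl2l15 were too low to be tested, with 6 and 24 counts in all libraries together.

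**Figure D2:**
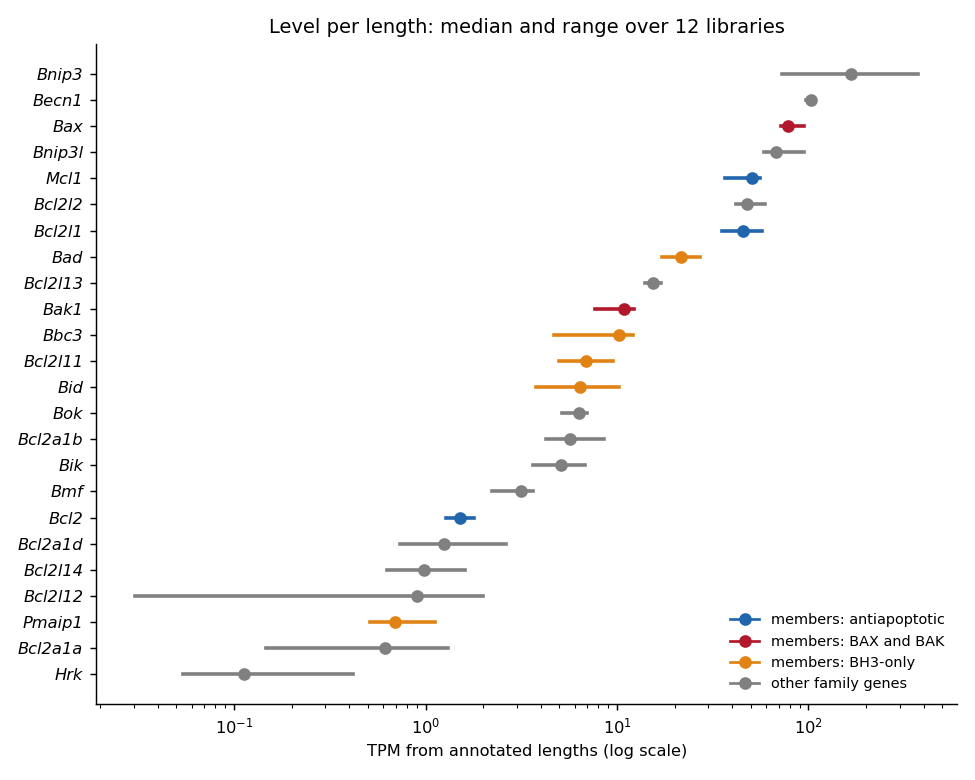
Level per length (TPM from annotated lengths, log axis) of the tested BCL2 family genes, with the median as a point and the range over 12 libraries as a line. Bax, Mcl1 and Bcl2l1 are the highest members (medians 78.3, 50.7 and 45.4 TPM) and Bcl2 and Pmaip1 the lowest (1.51 and 0.694 TPM).

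Bcl2l1 was the antiapoptotic member that rose. It stood at 73.6, 88.5 and 76.7 CPM in palmitate with C3a, 83.2, 83.9 and 79.7 CPM in palmitate, 58.1, 62.1 and 64.2 CPM in vehicle with C3a, and 58.6, 61.2 and 60.0 CPM in vehicle (replicates 1, 2 and 3). Every palmitate library was above every vehicle library, with and without C3a, and the groups did not overlap. The log2 fold change was 0.46 ± 0.06 (SE) for palmitate against vehicle (1.37-fold, adjusted p = 0.000221, higher in 3 of 3 same-numbered libraries). It was 0.37 ± 0.06 for palmitate with C3a against vehicle with C3a (1.29-fold, adjusted p = 0.00079, 3 of 3). In batch 1 alone the differences were 0.51 and 0.34, and in batch 2 alone 0.44 and 0.38 on the log2 scale. Both calls were kept in every alternative fit that gave a test.

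The table holds 9 Bcl2l1 transcripts, and most counts were assigned to 2 of them. Bcl2l1-201 and Bcl2l1-202 start at positions 152831728 and 152830666 of chromosome 2 (GRCm38, minus strand), have 3 exons each and the same coding length of 699 bases. To show the DNA at which the start sites lie, the 250 bases before the RefSeq starts at or nearest to these (GRCm38.p6, minus strand) are printed 5′ to 3′ from chr2:152831729-152831978 for Bcl2l1-201 and chr2:152830718-152830967 for Bcl2l1-202, with no capitals because none of the searched motifs was found. The RefSeq start below the printed window for Bcl2l1-202 is 152830717, upstream of the transcript's annotated start.
Bcl2l1 upstream of 152831728: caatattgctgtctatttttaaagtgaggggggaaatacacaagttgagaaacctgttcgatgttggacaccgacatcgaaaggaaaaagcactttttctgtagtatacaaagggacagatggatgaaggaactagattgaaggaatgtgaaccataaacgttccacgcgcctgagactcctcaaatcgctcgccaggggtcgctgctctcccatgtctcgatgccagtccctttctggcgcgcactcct
Bcl2l1 upstream of 152830717: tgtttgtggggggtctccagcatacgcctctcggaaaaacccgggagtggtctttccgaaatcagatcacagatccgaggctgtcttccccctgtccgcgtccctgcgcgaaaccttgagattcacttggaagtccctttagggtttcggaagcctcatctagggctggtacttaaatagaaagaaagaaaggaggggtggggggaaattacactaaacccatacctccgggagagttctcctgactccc

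Bcl2l1-202 carried 27.0, 41.2 and 31.6 CPM in palmitate with C3a, 22.3, 36.4 and 31.2 CPM in palmitate, 9.16, 18.3 and 23.4 CPM in vehicle with C3a, and 10.1, 16.2 and 16.4 CPM in vehicle. Within each replicate number both palmitate libraries were above both vehicle libraries, although across batches the groups overlap. Averaged over both C3a states, its log2 fold change for palmitate was 1.05 ± 0.12 (SE, 6 against 6 libraries, adjusted p = 0.000593 over 41537 transcripts). Bcl2l1-201 ran from 40.9 to 57.5 CPM in the 6 palmitate libraries and from 38.4 to 46.3 CPM in the 6 vehicle libraries, and its log2 fold change of 0.12 ± 0.06 was not called (adjusted p = 0.268). As a share of Bcl2l1 counts, Bcl2l1-202 held 39.0% on average in palmitate (26.8% to 46.6%) and 25.4% in vehicle (15.8% to 36.5%), pooled over both batches. Within each replicate number it held a larger share in both palmitate libraries than in both vehicle libraries. This difference in share was not called in the test of transcript usage (log2 difference 0.45, unadjusted p = 0.00235, adjusted p = 0.216). A rare further Bcl2l1 transcript was called higher in palmitate on 2 to 24 counts a library (log2 fold change 1.62 ± 0.43, adjusted p = 0.0432).

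Over the family, 38 member transcripts were in the table and 30 were tested. For the average palmitate effect 4 were called (13.3%, beside 10.4% of all transcripts): Bcl2l1-202, the rare Bcl2l1 transcript and Bax-201 rose and Bcl2l11-205 fell. With the replicate number as a block 3 were called, since the rare Bcl2l1 transcript missed the threshold (adjusted p = 0.062). Bcl2l11-205, the transcript with 72.8% to 86.5% of Bcl2l11 counts, had a log2 fold change of -0.68 ± 0.07 (adjusted p = 0.00031). Transcript usage was tested for 27 and called for none (beside 0.394% of all transcripts); 2 had an unadjusted p under 0.05. For C3a no member transcript was called (0.0% of all transcripts), nor any in usage (0.255% of all), and 0 and 1 had an unadjusted p under 0.05. The assignment of counts to transcripts is an estimate, and for some members it split by batch. In batch 1, Bid-204, which is annotated as a target of nonsense-mediated decay, held 74.2% to 93.5% of Bid counts, against 0% to 4.94% in batch 2, where Bid-201 held nearly all. Mcl1-202 was at 0 in all 4 batch 1 libraries and at 64 to 224 counts in batch 2.

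**Figure D3:**
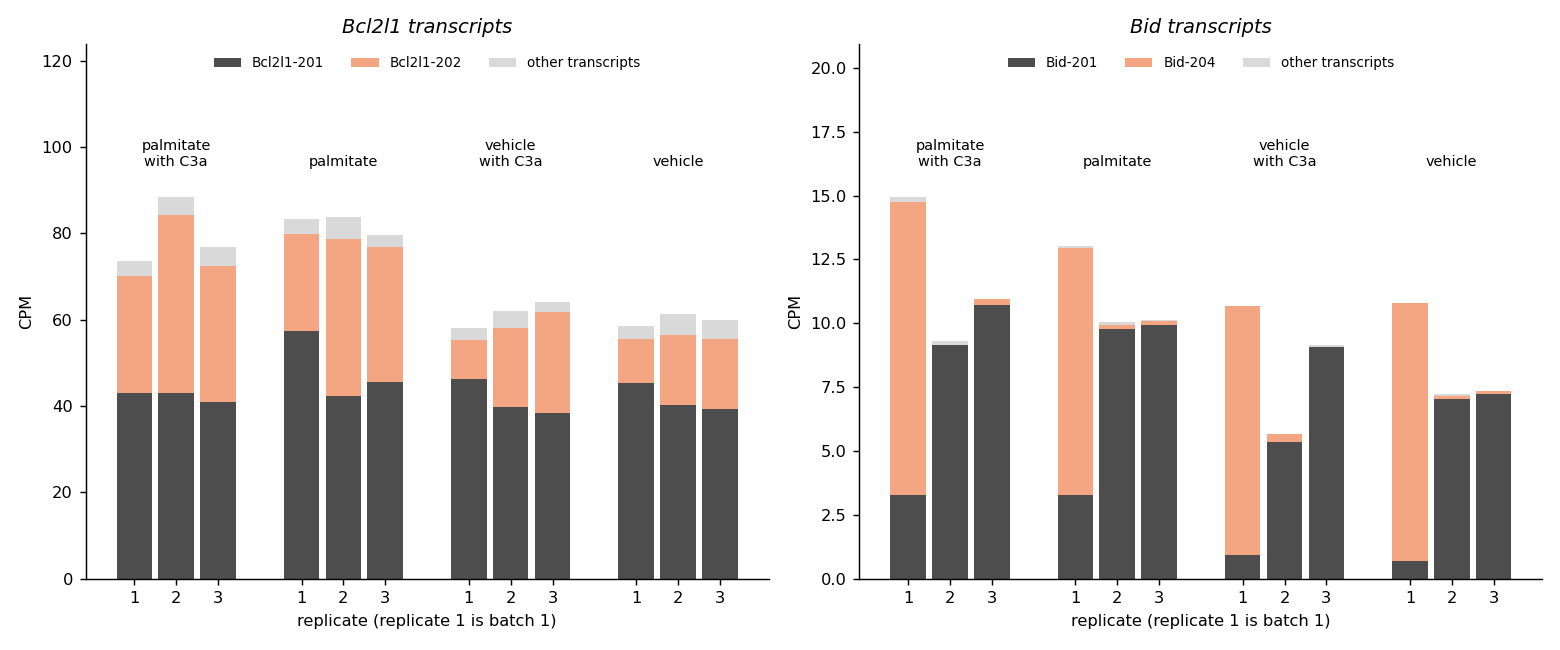
CPM assigned to the main transcripts of Bcl2l1 (left) and Bid (right), stacked by library; grey is the sum of the other transcripts. The Bcl2l1-202 part is 22.3 to 41.2 CPM in the palmitate libraries and 9.16 to 23.4 CPM in the vehicle libraries, and Bid counts lie on Bid-204 in replicate 1 and on Bid-201 in replicates 2 and 3.

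The other antiapoptotic members were not called. Mcl1 had 88.6, 110 and 110 CPM in palmitate with C3a, 98.1, 111 and 111 CPM in palmitate, 89.4, 115 and 112 CPM in vehicle with C3a, and 91.6, 113 and 112 CPM in vehicle. The batch 1 library was lowest in each group, and the groups overlap. Its log2 fold change was 0.02 for palmitate against vehicle (95% interval -0.07 to 0.12) and -0.03 for palmitate with C3a against vehicle with C3a (-0.13 to 0.06). Bcl2 ran from 6.50 to 8.01 CPM in the palmitate libraries and from 6.71 to 8.47 CPM in the vehicle libraries, with log2 fold changes of -0.19 (95% interval -0.46 to 0.08) and -0.05 (-0.32 to 0.21) for the same comparisons.

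Of the pore-forming members, Bax rose by a small amount. It had 51.9, 48.6 and 48.9 CPM in palmitate with C3a, 54.1, 46.3 and 52.8 CPM in palmitate, 45.2, 43.4 and 43.6 CPM in vehicle with C3a, and 44.8, 45.0 and 40.7 CPM in vehicle. The lowest palmitate library lay just above the highest vehicle library, so the groups did not overlap. The log2 fold change was 0.23 ± 0.06 (SE) for palmitate against vehicle (1.17-fold, adjusted p = 0.0103, higher in 3 of 3) and 0.18 ± 0.06 with C3a in both groups (1.13-fold, adjusted p = 0.0353, 3 of 3). These calls lie near the threshold. The call for palmitate against vehicle was lost on omitting replicate 1 of palmitate (adjusted p = 0.052) or replicate 3 of vehicle (0.0526), without the batch term (0.0523) and in batch 2 alone (0.12), at log2 fold changes of 0.20 to 0.23. With C3a in both groups it was lost on omitting any of the 6 libraries compared or replicate 1 of palmitate (adjusted p = 0.0579 to 0.124), and it missed the threshold in DESeq2 (adjusted p = 0.0584), in batch 2 alone (0.223), without the batch term (0.122) and without the filter on low counts (0.0628). Bax shares 12.2% of its exonic bases with Gm45808 on the same strand, and counts of the overlap cannot be told apart.

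Bak1, the other pore-forming member, ran from 12.7 to 17.5 CPM in the palmitate libraries and from 11.8 to 16.5 CPM in the vehicle libraries. It was called in neither comparison, with log2 fold changes of -0.02 (95% interval -0.23 to 0.20) and 0.06 (-0.16 to 0.27). The log2 ratio of Bax to Bcl2 CPM, often quoted as a balance of the family, was 2.77 ± 0.15 in palmitate with C3a, 2.90 ± 0.19 in palmitate, 2.54 ± 0.15 in vehicle with C3a and 2.48 ± 0.24 in vehicle (SD, n = 3 each, no test). CPM is not divided by length (867 bases for Bax-201, 7191 bases for Bcl2-201). The ratio can therefore be compared between groups but does not give the relative level of the genes. It does not count Bcl2l1 or Mcl1, whose levels per length exceed that of Bcl2 many times.

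Bcl2l11, which encodes the BH3-only protein BIM, was the member with the largest change in size in both palmitate comparisons. It had 13.8, 16.3 and 15.0 CPM in palmitate with C3a, 16.7, 14.9 and 14.0 CPM in palmitate, 23.2, 22.5 and 21.6 CPM in vehicle with C3a, and 22, 21.2 and 23.6 CPM in vehicle. Every palmitate library was below every vehicle library, with a gap of several CPM between the groups. The log2 fold change was -0.55 ± 0.08 (SE) for palmitate against vehicle (a ratio of 0.682, adjusted p = 0.000524, higher in 0 of 3). It was -0.57 ± 0.08 with C3a in both groups (a ratio of 0.672, adjusted p = 0.000371, 0 of 3). In batch 1 alone the differences were -0.39 and -0.74, and in batch 2 alone -0.62 and -0.50. Both calls were kept in every alternative fit that gave a test.

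Bcl2l11 and Bbc3 are textbook targets of FOXO factors, and CHOP and ATF4 act on several BH3-only genes in stress. The 250 bases before each RefSeq start were therefore searched on both strands for the FOXO motif GTAAACA, the ATF4-C/EBP composite TGATGCAA and the cyclic AMP response element TGACGTCA. RefSeq starts (GRCm38.p6) were at hand for 9 of the 10 members, 15 in all; Pmaip1 had none. GTAAACA was found before 1 start of Bcl2l11, 227 bases upstream on the same strand, and before 1 start of Bbc3, 167 bases upstream on the other strand, beside 3.17% of all 32851 promoters. TGATGCAA (0.791% of all promoters) and TGACGTCA (1.55%) were in none of the 15. A match is a string of letters and not a measured site. These 2 windows are printed 5′ to 3′ because they hold the only matches, with the motif in capitals, from chr2:128125788-128126037 and chr7:16310011-16310260 (both plus strand).
Bcl2l11: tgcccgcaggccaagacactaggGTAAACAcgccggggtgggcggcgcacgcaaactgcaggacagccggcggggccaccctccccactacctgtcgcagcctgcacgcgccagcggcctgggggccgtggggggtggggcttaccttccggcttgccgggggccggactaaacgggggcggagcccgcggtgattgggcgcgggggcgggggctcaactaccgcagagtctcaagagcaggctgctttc
Bbc3: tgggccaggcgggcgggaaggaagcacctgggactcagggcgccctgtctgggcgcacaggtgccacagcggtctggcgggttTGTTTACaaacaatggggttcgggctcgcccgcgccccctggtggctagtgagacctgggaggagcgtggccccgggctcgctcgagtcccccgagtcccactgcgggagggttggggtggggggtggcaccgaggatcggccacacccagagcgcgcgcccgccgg

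Bbc3, which encodes PUMA, a BH3-only protein that binds all antiapoptotic members, was called in neither comparison. It had 7.49, 10.7 and 10.7 CPM in palmitate with C3a, 5.73, 11.0 and 10.2 CPM in palmitate, 6.99, 12.2 and 11.6 CPM in vehicle with C3a, and 5.42, 11.4 and 11.2 CPM in vehicle. The batch 1 library was the lowest of each group and the groups overlap. Its log2 fold change was -0.05 for palmitate against vehicle (95% interval -0.27 to 0.18) and -0.07 with C3a in both groups (-0.30 to 0.15).

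Bid encodes the BH3-only protein that caspase-8 cleaves downstream of death receptors. It had 15.0, 9.31 and 11.0 CPM in palmitate with C3a, 13.0, 10.1 and 10.1 CPM in palmitate, 10.7, 5.65 and 9.15 CPM in vehicle with C3a, and 10.8, 7.24 and 7.37 CPM in vehicle. Batch 1 was highest in every group, so the groups overlap, but within each replicate number both palmitate libraries were above both vehicle libraries. With C3a in both groups Bid rose, at a log2 fold change of 0.46 ± 0.14 (SE, 1.38-fold, adjusted p = 0.0318, higher in 3 of 3; 0.0121 with the replicate number as a block). For palmitate against vehicle it was 0.40 ± 0.14 and missed the threshold (adjusted p = 0.0599, 3 of 3), and with the block it passed (0.0276), as it did in DESeq2 (0.0391). The call with C3a was lost without replicate 1 or 3 of palmitate with C3a (adjusted p = 0.0978 and 0.0914), without replicate 1 or 2 of vehicle with C3a (0.0864 and 0.0896), in batch 2 alone (0.185) and without the batch term (0.289). Without replicate 2 of vehicle with C3a, the lowest library, the log2 fold change was 0.29. Bid shares 17.7% of its exonic bases with Bcl2l13 on the opposite strand; the kit marks strand, but whether the counting used it is not given in the sources used here.

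Bad, a BH3-only protein held inactive by phosphorylation, had 16.0, 12.8 and 14.3 CPM in palmitate with C3a, 16.1, 12.4 and 14.8 CPM in palmitate, 20.2, 14.4 and 15.4 CPM in vehicle with C3a, and 16.9, 16.3 and 16.0 CPM in vehicle. It was lower in the palmitate library of all 3 same-numbered differences in both comparisons, though the groups overlap. The log2 fold changes of -0.19 (95% interval -0.39 to 0.01, adjusted p = 0.157) and -0.20 (-0.40 to -0.003, adjusted p = 0.129) were not called. Bad shares 20.5% of its exonic bases with Gpr137, Bcl2 6.09% with D630008O14Rik, and Bak1 18.2% and 7.35% with stretches annotated as Ggnbp1, all on the opposite strand.

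Pmaip1, which encodes NOXA, was low but detected in every library, with 25 to 79 counts a library and 574 over all 12 libraries. It had 1.29, 1.21 and 1.57 CPM in palmitate with C3a, 2.02, 0.972 and 1.07 CPM in palmitate, 1.13, 0.953 and 1.02 CPM in vehicle with C3a, and 1.70, 1.43 and 1.45 CPM in vehicle. The 3 libraries of vehicle with C3a were below the 3 of vehicle, the 3 of palmitate with C3a were just above the 3 of vehicle with C3a, and the palmitate groups overlap each other. Its intervals were the widest of the 10 members: the log2 fold change was -0.22 for palmitate against vehicle (95% interval -0.76 to 0.32) and 0.41 with C3a in both groups (-0.14 to 0.96), neither called.

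**Figure D4:**
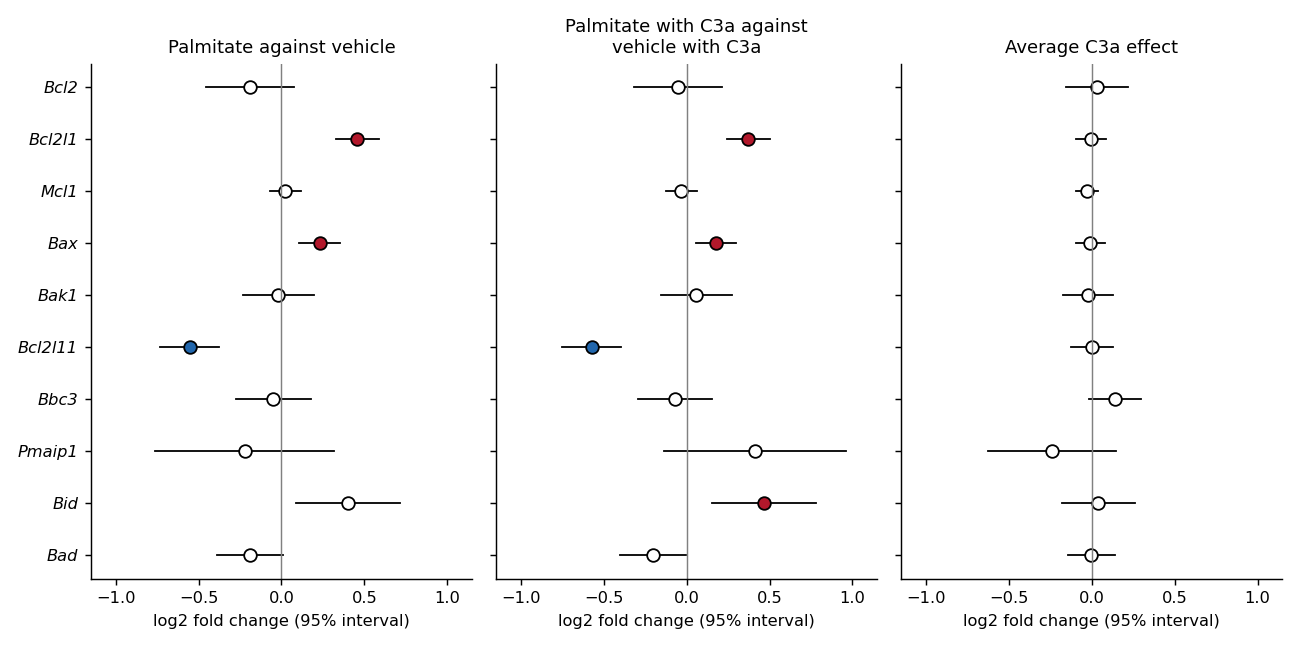
Log2 fold changes of the 10 members with 95% intervals from the edgeR fit; red marks genes called higher, blue genes called lower and white genes not called at an adjusted p under 0.05. Bcl2l1 (0.46 and 0.37), Bax (0.23 and 0.18) and Bcl2l11 (-0.55 and -0.57) are called in both palmitate comparisons, Bid (0.46) with C3a in both groups, and none for the average C3a effect.

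C3a left no called difference in any of the 10 members. None was called for palmitate with C3a against palmitate (0.0% of all genes), for vehicle with C3a against vehicle (0.0%), for the interaction of C3a and palmitate (0.0%) or for the average of both C3a effects (0.00633%, which is 1 gene). At an unadjusted p under 0.05 the members numbered 0, 1, 0 and 0 in these comparisons, beside 430, 347, 251 and 555 of all genes, and DESeq2 called none of the members either. The 1 member was Pmaip1, with a log2 fold change of -0.56 ± 0.25 in vehicle with C3a against vehicle (unadjusted p = 0.0467, adjusted p = 1). For the members that moved with palmitate the average C3a effect on the log2 scale was -0.01 for Bcl2l1 (95% interval -0.10 to 0.09), -0.01 for Bax (-0.10 to 0.08), 0.002 for Bcl2l11 (-0.12 to 0.13) and 0.04 for Bid (-0.18 to 0.26). The largest average values of the 10 members were those of Pmaip1 (-0.24, -0.63 to 0.15) and Bbc3 (0.14, -0.02 to 0.30), neither called. The interaction, which asks whether palmitate changed a gene by another amount when C3a was present, was -0.09 for Bcl2l1 (-0.27 to 0.10), -0.02 for Bcl2l11 (-0.27 to 0.23) and 0.06 for Bid (-0.38 to 0.50). These intervals bound the size of a C3a effect at this depth and do not show that there was none.

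Of the other BCL2 family genes, 14 were tested and none was called for palmitate against vehicle by edgeR (beside 25.4% of all genes). At an unadjusted p under 0.05 there were 4 of the 14, beside 5744 of the 15794 genes tested. DESeq2 called 2 of the 14, beside 4055 of all genes. With C3a in both groups 1 of the 14 was called (beside 26.9% of all genes). This was Bik, a BH3-only gene of the endoplasmic reticulum, which was lower. It averaged 2.48 ± 0.23 CPM in palmitate with C3a and 3.86 ± 0.27 CPM in vehicle with C3a (SD, n = 3 each), a log2 fold change of -0.63 ± 0.18 (SE, adjusted p = 0.0223; lost on omitting replicate 1 of palmitate with C3a, or replicate 1 or 2 of vehicle with C3a, adjusted p = 0.057 to 0.0881, and in batch 2 alone, 0.0979), and for palmitate against vehicle the log2 fold change was -0.48 ± 0.18 (adjusted p = 0.0769). Bcl2l2 averaged 123 ± 10.8 CPM in palmitate and 112 ± 6.94 CPM in vehicle (log2 fold change 0.13 ± 0.04, adjusted p = 0.0561). It passed with the replicate block (0.0424), in DESeq2 (0.0268) and with RLE scaling (0.0389). Omitting replicate 2 of vehicle (0.0244) or replicate 1 or 3 of palmitate with C3a (0.0499 and 0.0441) also brought it under the threshold, and the other alternative fits did not. Bnip3 averaged 310 ± 98.6 CPM in palmitate and 182 ± 107 CPM in vehicle, a log2 fold change of 0.84 ± 0.35 (adjusted p = 0.124). It passed the threshold with the replicate block (0.0265), as it did with C3a in both groups (0.0189, against 0.0688 without the block). Bcl2l12, a low member of the wider family, averaged 0.344 ± 0.346 CPM in palmitate and 0.877 ± 0.572 CPM in vehicle, a log2 fold change of -1.50 ± 0.57 (adjusted p = 0.0798). It passed with the replicate block (0.04) and in DESeq2 (0.0384), and with C3a in both groups its log2 fold change was 0.61 (adjusted p = 0.451). Bmf and Hrk, BH3-only genes that act at the cytoskeleton and in neurons, and Bok, a relative of BAX, were not called.

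Downstream of the family, 16 apoptosome and caspase genes were tested for palmitate against vehicle, of which 3 rose and 2 fell (beside 25.4% of all genes called; median log2 fold change 0.06). Cycs, which encodes the cytochrome c released once the membrane opens, rose (0.29 ± 0.06, adjusted p = 0.00407), as did Parp1, a caspase substrate (0.15 ± 0.04, adjusted p = 0.0146, and 0.0575 or 0.0663 without replicate 1 of palmitate or of vehicle). Casp2, a caspase that can cleave BID, fell (-0.24 ± 0.06, adjusted p = 0.00889). In batch 2 alone these calls were lost (adjusted p = 0.0527 for Cycs, 0.13 for Parp1 and 0.0755 for Casp2). Without the batch term they were lost too (adjusted p = 0.543 for Cycs, 0.0628 for Parp1 and 0.094 for Casp2), and that of Parp1 also with total-count scaling (0.068). With C3a in both groups 3 of the 16 rose and 3 fell (beside 26.9% of all genes). Among 7 tested inhibitors of apoptosis 1 fell and none rose in either comparison. It was Birc2, a ubiquitin ligase of TNF signalling, at -0.25 ± 0.04 (adjusted p = 0.00136), with Xiap, the direct caspase inhibitor, at -0.10 ± 0.08 (adjusted p = 0.416). With C3a in both groups Xiap was not called either (-0.16, adjusted p = 0.175), but passed with the replicate block (0.0438).

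Genes of mitochondrial channels, carriers and membrane dynamics gave 6 higher and none lower of 12 tested for palmitate against vehicle (beside 13.4% of all genes called higher), and 5 and none with C3a in both groups (beside 13.8%). Slc25a5, an ADP/ATP carrier of the inner membrane, averaged 258 ± 22.5 CPM in palmitate and 189 ± 5.42 CPM in vehicle (SD, n = 3 each), a log2 fold change of 0.44 ± 0.04 (adjusted p = 3.78e-05). Vdac3 (0.41 ± 0.05, adjusted p = 0.000161) and Vdac2 (0.26 ± 0.06, adjusted p = 0.00529), channels of the outer membrane of which VDAC2 binds BAK and BAX, rose too, as did Ppif, the matrix cyclophilin D (0.41 ± 0.08, adjusted p = 0.00316). Without the batch term the calls of Vdac2 (adjusted p = 0.0518) and Ppif (0.0597) were lost, and in batch 2 alone that of Vdac2 (0.0807). The median of the list was 0.13, beside -0.02 over all genes tested.

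Of 10 tested death receptor and adaptor genes, 1 rose and 2 fell in both palmitate comparisons (beside 25.4% and 26.9% of all genes called). The gene that rose was Tnfrsf1a, a TNF receptor (0.17 ± 0.05, adjusted p = 0.0312, for palmitate against vehicle); its call was lost in batch 2 alone (0.167), without the batch term (0.529), with total-count scaling (0.0693) and on omitting replicate 1 or 2 of palmitate or any replicate of vehicle (0.0677 to 0.132). Tnfsf10, which encodes the ligand TRAIL, averaged 6.84 ± 0.92 CPM in palmitate and 12.5 ± 0.721 CPM in vehicle, a log2 fold change of -0.87 ± 0.11 (adjusted p = 0.000165). Cflar, the inhibitor of caspase-8 activation, fell by 0.25 ± 0.05 on the log2 scale (adjusted p = 0.00425, and 0.0768 in batch 2 alone).

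A list of regulators of BH3-only genes, which also holds targets of the stress response such as Chac1, had 17 tested genes. Of these, 9 rose and 3 fell in both palmitate comparisons (70.6% called, beside 25.4% of all genes for palmitate against vehicle and 26.9% with C3a in both groups). Like the other lists, it was chosen with earlier results of these data known, so the share is a description and not a test. Atf4, the main factor of the integrated stress response, averaged 512 ± 52.8 CPM in palmitate and 316 ± 7.11 CPM in vehicle (log2 fold change 0.70 ± 0.06, adjusted p = 1.71e-05). Trib3 (1.36 ± 0.19, adjusted p = 0.001) and Chac1 (0.84 ± 0.12, adjusted p = 0.000643), both targets of that response, and Myc (0.97 ± 0.13, adjusted p = 0.000303) rose with it. Bbc3 and Pmaip1, known targets of stress factors, were not called in the palmitate comparisons, and Bcl2l11 was lower. A link of these members to the genes above was not tested. Of 16 tested p53 targets 5 rose and 2 fell for palmitate against vehicle (beside 25.4% of all genes called): Cdkn1a, the cell cycle inhibitor p21 (0.78 ± 0.10, adjusted p = 0.000298), Aen (0.38 ± 0.05, adjusted p = 0.000372) and Gadd45a (0.39 ± 0.06, adjusted p = 0.000842) rose, and Sesn1, a stress sensor, fell (-0.60 ± 0.06, adjusted p = 2.91e-05). Bax, Bbc3 and Pmaip1 are p53 targets as well and are not in that count.

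Levels of MCL1 and BIM protein also depend on breakdown, which RNA counts do not measure. A list for that turnover held 12 tested genes, some of them from the protein family that binds phosphorylated BAD. Of the 12, 2 rose (both of that BAD-binding family) and 3 fell for palmitate against vehicle (beside 25.4% of all genes called). With C3a in both groups none rose and 2 fell (beside 26.9%). Btrc, a ubiquitin ligase subunit, averaged 62.4 ± 1.56 CPM in palmitate and 85.8 ± 2.87 CPM in vehicle (log2 fold change -0.46 ± 0.04, adjusted p = 1.87e-05), and Mapk3, the kinase ERK1 that marks BIM for breakdown, fell too (-0.29 ± 0.05, adjusted p = 0.00215, and 0.0586 in batch 2 alone). Ywhae (0.18 ± 0.04) and Ywhaz (0.17 ± 0.04), members of the protein family that binds phosphorylated BAD, rose (adjusted p = 0.00797 and 0.00852). Without the batch term both calls were lost (adjusted p = 0.0618 for Ywhae and 0.247 for Ywhaz), and with C3a in both groups neither was called (log2 fold change 0.06 for Ywhae, adjusted p = 0.336, and 0.11 for Ywhaz, adjusted p = 0.0582).

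Markers of some islet cell types moved with palmitate as well. Of 11 endothelial markers 8 fell for palmitate against vehicle and 4 with C3a in both groups (beside 12.0% and 13.1% of all genes called lower), and their summed level was 155 to 271 CPM in palmitate with C3a, 148 to 260 CPM in palmitate, 243 to 332 CPM in vehicle with C3a and 262 to 361 CPM in vehicle. Of 10 beta cell markers 5 fell in each comparison, with sums of 134577 to 165539 CPM in palmitate with C3a, 144514 to 176461 CPM in palmitate, 171848 to 192748 CPM in vehicle with C3a and 159878 to 185079 CPM in vehicle. Of 8 duct markers 3 rose in each comparison (beside 13.4% and 13.8% of all genes called higher). Their sums were 1070 to 1238 CPM in palmitate with C3a, 1024 to 1163 CPM in palmitate, 797 to 902 CPM in vehicle with C3a and 754 to 956 CPM in vehicle. Fibroblast and pericyte markers summed to 205 to 1509 CPM in palmitate with C3a, 217 to 798 CPM in palmitate, 440 to 517 CPM in vehicle with C3a and 365 to 729 CPM in vehicle. Of these 10 markers 3 fell for palmitate against vehicle (median log2 fold change -0.55) and 2 with C3a in both groups (median 0.41). Of 6 Schwann cell markers 2 fell in each comparison, and the sums of palmitate libraries lay below those of vehicle libraries, at 124 to 141 CPM in palmitate with C3a, 125 to 135 CPM in palmitate, 153 to 163 CPM in vehicle with C3a and 148 to 154 CPM in vehicle. None of 12 acinar and 3 delta cell markers was called in either comparison. Of 8 alpha cell markers 2 rose and 2 fell for palmitate against vehicle, and 1 rose and 3 fell with C3a in both groups. Of 10 macrophage markers 1 rose and 1 fell in each comparison. Of 2 PP cell markers 1 rose for palmitate against vehicle and none with C3a in both groups. Of 4 tested lymphocyte markers 1 fell in each comparison. Of all genes 25.4% and 26.9% were called. No marker of these lists was at 0 in all libraries. The part of these cell types in the values of Bcl2l1, Bax, Bcl2l11 and Bid was not tested.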

How the data were processed

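What the authors deposited are estimated counts for mouse transcripts in 12 islet libraries, whole numbers with no normalization. Per the submitters' processing notes, kallisto, DESeq2 and GRCm38 were used; the sources used here do not give their roles, the transcriptome release or the strand setting. The library kit marks strand, per the labels' protocols. GENCODE M21 identifiers matched 69942 of 71524 transcripts, which gave 22141 genes; the other 1582 transcripts (0.581% to 0.677% of counts) were not used.

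Counts were added up per gene and rounded. The filterByExpr function kept 15794 genes. TMM factors were 0.967 to 1.045. Quasi-likelihood tests (edgeR 4.0.16, robust, R 4.3.3) had group and sequencing batch as terms over the 12 libraries, with 7 residual degrees of freedom and a biological coefficient of variation of 11.2%. Tests were two-sided, adjusted by Benjamini-Hochberg over all genes tested in a comparison, and called at an adjusted p under 0.05. SEs and 95% intervals were approximated from the F statistics. Transcripts were fitted likewise (41537 tested), and usage with diffSpliceDGE. The procedure was tested on simulated data. Promoters are RefSeq's (GRCm38.p6).

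Totals of 22216420 to 50264695 counts set the precision of low genes. Of 66 library pairs none agreed within sampling noise (lowest chi-squared per degree of freedom 7.72). Replicate 1 is batch 1 in every group. Libraries that share a number deviated together from their group means, at a correlation of at least 0.395 over 18 pairs (mean 0.575, the batch difference included) and of 0.0799 to 0.185 over the 6 pairs of groups within batch 2. The labels give replicates 2 and 3 a date each that all 4 groups share. The numbers were taken to pair the libraries in the replicate block and in same-numbered differences, while the main fit had batch and not the number as a term.

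Alternatives were no batch term, a replicate block, RLE and total-count scaling, no filter, DESeq2 1.42.0, batch 2 alone, batch 1 alone (no test) and leaving out each library. The members, gene lists and rule for named genes were chosen with earlier results of these data known. By that rule the text may name the 10 members, any tested gene of the other BCL2 family lists and, of each further list, up to 4 genes with the smallest p for palmitate against vehicle and up to 2 for the average C3a effect.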

Additional observations from a re-analysis of the deposited data

How the results depend on the processing

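Leaving out sequencing batch as a term, or using batch 2 alone, cut the genes called to 1841 and 2058 for palmitate against vehicle (main count 4005) and to 2074 and 2331 for palmitate with C3a against vehicle with C3a (main count 4246); the second of these alternatives has fewer libraries. For palmitate with C3a against vehicle with C3a, 2 and 2 members were then called in place of 4, with Bax and Bid lost. Leaving out 1 library gave 2760 to 4228 and 3023 to 4260 genes and 2 to 4 members. For palmitate with C3a against palmitate 1 gene was called in batch 2 alone and 1 by DESeq2, and 0 to 1 on leaving out a library. For vehicle with C3a against vehicle 3 were called without a filter, 2 by DESeq2 and 0 to 1 on leaving out a library. For the average C3a effect, with 1 gene in the main fit, the count was 0 without the batch term, 2 by DESeq2 and 0 to 2 on leaving out a library. None of these was a member. With a filter of at least 10 counts per transcript, 2 member transcripts were called in place of 4, with more transcripts tested.

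With the replicate number as a block, 4612 and 4779 genes were called in the palmitate comparisons and 0 for the average C3a effect, and 4 members in each palmitate comparison, since Bid passed for palmitate against vehicle (adjusted p = 0.0276); it changed no other member's call.

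Over the 10 members and 6 comparisons, 1160 of 1200 alternative values kept direction and side of the threshold, where sign changes of values not called in either fit (128) were counted as kept. Calls were lost in 21 and gained in 4, all for Bax or Bid; none reversed, and 15 values of batch 1 alone moved by more than the replicate spread. Depth limits Pmaip1, at 574 counts in all.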
